A study of Sus scrofa with 8 samples.

Results

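The genes described here encode glycosyltransferases, the enzymes of the Golgi and endoplasmic reticulum that start, branch, lengthen and cap the sugar chains of glycoproteins and glycolipids. They were chosen by name, as all genes whose Entrez gene ID maps to a pig symbol of the GALNT, GCNT, B3GNT, B3GALT, B4GALT, ST3GAL, ST6GAL (ST6GALNAC included), ST8SIA or FUT series with a number, with the transcript of the highest mean count standing for each gene. This gave 61 of the 21064 genes in the count tables. Messenger RNA was measured by RNA-seq in the endometrium, the inner lining of the uterus, of 8 German Landrace gilts (young female pigs) slaughtered on day 14 after insemination. All 8 had not reached puberty and were given 750 IU of the gonadotropin PMSG and, 72 h later, 500 IU of the gonadotropin hCG to time ovulation. The 4 pregnant gilts were inseminated with Pietrain semen 24 h and 36 h after hCG, and the 4 control gilts received only supernatant from spun-down semen of the same boar. Endometrium without the muscle layer was taken from reddened embryo attachment zones in pregnant gilts and from similar places in controls, so that pregnancy and the choice of such zones cannot be told apart. RNA from 3 places of 1 uterine horn was pooled per animal, and each library stands for 1 animal.

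Sugar chains linked to serine or threonine (O-glycans, the main chains of mucins) are started by the GALNT enzymes, which add N-acetylgalactosamine (GalNAc) to the protein. The first sugar is then extended to a core, branched by GCNT enzymes, and lengthened by turns of N-acetylglucosamine (GlcNAc) from B3GNT enzymes and galactose from B4GALT or B3GALT enzymes, and sialyltransferases and fucosyltransferases add the outer sugars that lectins and microbes bind. The uterine epithelium carries a thick coat of such glycans, and its changes before implantation have long been studied in the pig and other mammals. The roles given for single genes are those known mainly from the human and mouse enzymes.

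Of the 61 genes, 52 had enough reads to be tested, and 19 of them differed between pregnant and control endometrium. By edgeR's quasi-likelihood test, with p-values adjusted over all 18783 transcripts tested and an adjusted p of 0.05 as the threshold, 10 were higher in pregnant animals (19.2% of those tested) and 9 were lower (17.3%). Among the 15913 genes tested, each by its highest transcript, 21.6% passed, 11.6% higher and 10.1% lower, while 36.5% of the glycosyltransferase genes passed. At an unadjusted p under 0.05 there were 24. The 4 pregnant and the 4 control values did not overlap for 18 of the 52 genes (34.6%), against 25.9% of all genes tested. The median log2 change, pregnant over control, was −0.08 over the 52 genes and −0.02 over all genes tested, and genes that passed lay on both sides of it. The number of lower genes was 5 without pregnant replicate 2 and 5 without control replicate 2. Counts by step, list or marker set below should be read against the 11.6% higher and 10.1% lower among all genes tested.

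**Figure D1:**
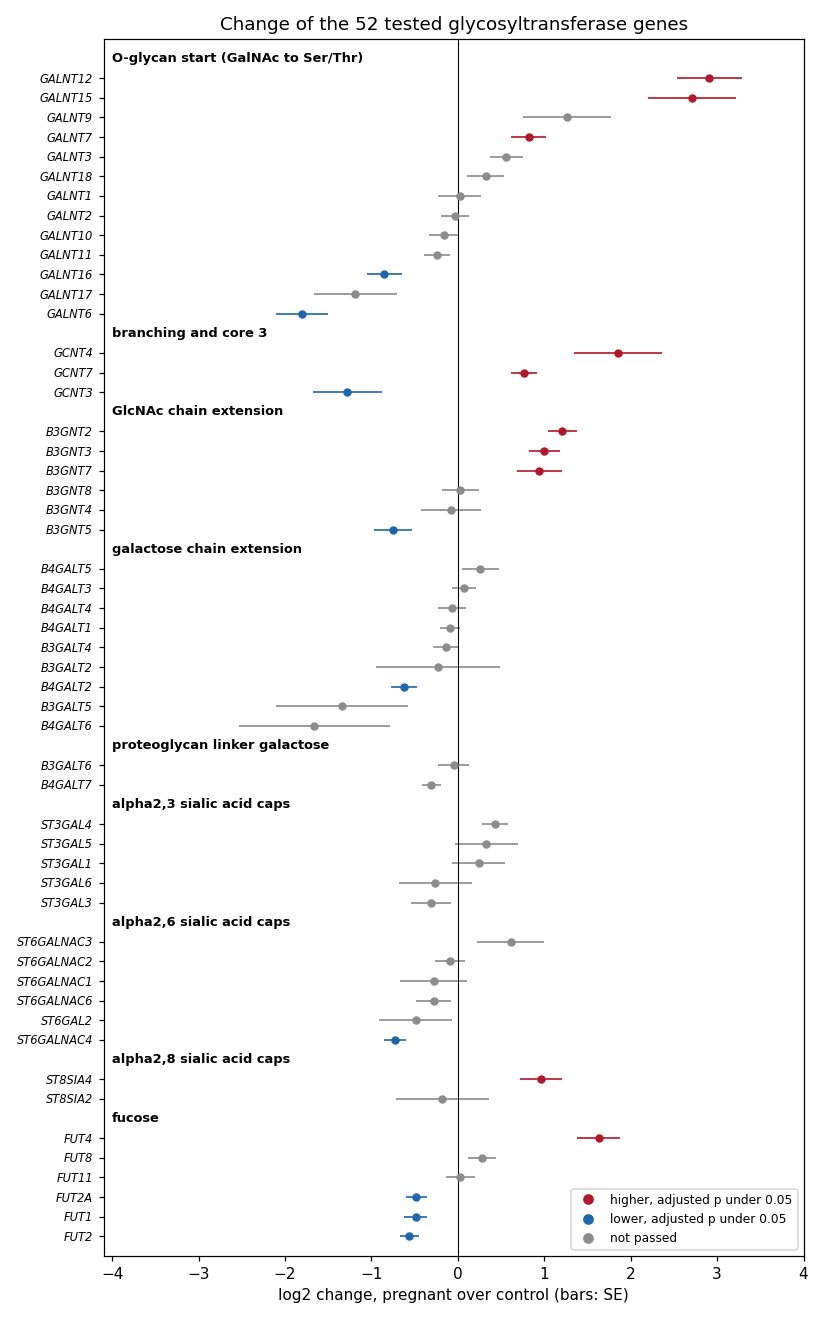
Log2 change (x axis, pregnant over control, bars are SE) of the 52 tested glycosyltransferase genes, grouped by the step of chain building (y axis). The changes run from −1.80 for GALNT6 to 2.91 for GALNT12 among genes that passed (red higher, blue lower); all 5 genes for α2,3 sialic acid caps are grey, that is, they did not pass.

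The libraries held 28035007 to 41016150 counts. In a principal component analysis of the 500 most variable transcripts the first component held 82.3% of the variance, with pregnant libraries at 28.96 to 35.98, control replicates 1 to 3 at −39.42 to −35.1 and control replicate 4 at −23.34. Control replicate 4 was also the control nearest to the pregnant values for 11 of the 19 glycosyltransferase genes that passed. Of 10 matched epithelial markers 1 was higher and 4 were lower in pregnant animals, and their summed level was 1920 to 2600 CPM (read counts scaled to library size, with TMM factors) in pregnant animals and 2470 to 3810 CPM in controls. All 4 matched markers of leukocytes in general were higher (286 to 380 CPM summed in pregnant animals, 115 to 167 CPM in controls), as were 8 of 8 T and NK cell markers (127 to 200 CPM in pregnant animals, 26.7 to 57.6 CPM in controls) and 6 of 7 tested macrophage and dendritic cell markers, with 1 lower. Of 5 matched smooth muscle markers 4 were lower (259 to 400 CPM summed in pregnant animals, 465 to 732 CPM in controls), and stromal fibroblast markers summed to 16100 to 23500 CPM in pregnant animals and 24900 to 29600 CPM in controls, with 2 of 8 higher and 2 lower. Of 10 matched conceptus markers, genes of the early embryo and its trophoblast, 4 were tested. GATA3 was higher (6.47 ± 1.38 CPM in pregnant animals, 2.74 ± 0.901 CPM in controls; log2 change 1.24, adjusted p = 0.00823), GATA2 was lower (80.1 ± 8.77 CPM in pregnant animals, 142.9 ± 16.6 CPM in controls; log2 change −0.84, adjusted p = 0.000956), and TFAP2C and HSD17B1 did not pass. The other 6 had too few reads to be tested. Among them CDX2 had 4 reads in pregnant animals and 0 in controls, and IL1B2 and IFNG, with 14 and 26 reads in pregnant animals and 2 and 4 in controls, were higher in all pregnant animals than in all controls. ELF5 and HAND1 had 40 and 16 reads in pregnant animals and 15 and 4 in controls. CYP17A1 went the other way, with 7 reads in pregnant animals and 11 in controls. The groups overlapped for CDX2, ELF5, HAND1 and CYP17A1. The 10 markers summed to 80.3 to 102 CPM in pregnant animals and 136 to 175 CPM in controls. Most of each sum was GATA2, which was also high in the non-pregnant controls, so the sums do not give the level of conceptus RNA. In whole tissue, fewer cells of a type and less RNA per cell cannot be told apart, and the part of these cell types in the results below was not tested.

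The enzymes that start O-glycans held both the largest rises and the largest fall among the genes that passed. Of 13 tested GALNT genes, GALNT12, GALNT15 and GALNT7 rose and GALNT6 and GALNT16 fell. GALNT12, a starter enzyme best known from the human colon, had 36.7, 27.4, 33.1 and 26.5 CPM in pregnant replicates 1 to 4, against 3.02, 1.92, 3.35 and 8.05 CPM in control replicates 1 to 4. Every pregnant value was above every control value, with control replicate 4 the highest control. The log2 change was 2.91 ± 0.38 (SE; edgeR adjusted p = 0.000454; Entrez gene 100512452, chromosome 1, 268840666 to 268883005 on build Sscrofa10.2). GALNT15 stood at 93.7, 123, 86.7 and 69.2 CPM in pregnant replicates 1 to 4 and at 6.85, 10.1, 7.00 and 32.8 CPM in control replicates 1 to 4. The groups did not overlap, but control replicate 4 lay far above the other controls. Its log2 change was 2.71 ± 0.51 (adjusted p = 0.0052; Entrez gene 100157572, chromosome 13, 3520515 to 3559241), and 3.54 without control replicate 4. GALNT7, whose enzyme acts on peptides that already carry a GalNAc, rose at a low level, with 5.10, 4.63, 3.84 and 5.25 CPM in pregnant animals and 2.34, 2.55, 3.09 and 2.69 CPM in controls (log2 change 0.82 ± 0.20, adjusted p = 0.0147; Entrez gene 100158205, chromosome 14, 17869888 to 17932460).

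GALNT6, a starter enzyme of broad use in epithelia, went the other way. It was measured at 6.83, 6.72, 4.00 and 6.35 CPM in pregnant replicates 1 to 4 and at 27.5, 11.7, 15.9 and 28.3 CPM in control replicates 1 to 4. All pregnant libraries lay below the lowest control, and control replicate 4 was the highest of all, on the far side from the pregnant values. The log2 change was −1.80 ± 0.30 (adjusted p = 0.00171; Entrez gene 100520836, chromosome 5, 17456765 to 17477016). GALNT16 had 7.64, 5.20, 5.13 and 4.42 CPM in pregnant animals and 9.90, 8.48, 11.4 and 10.6 CPM in controls, again without overlap (log2 change −0.85 ± 0.20, adjusted p = 0.0124; Entrez gene 100513992, chromosome 7, 99154078 to 99262651).

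**Figure D2:**
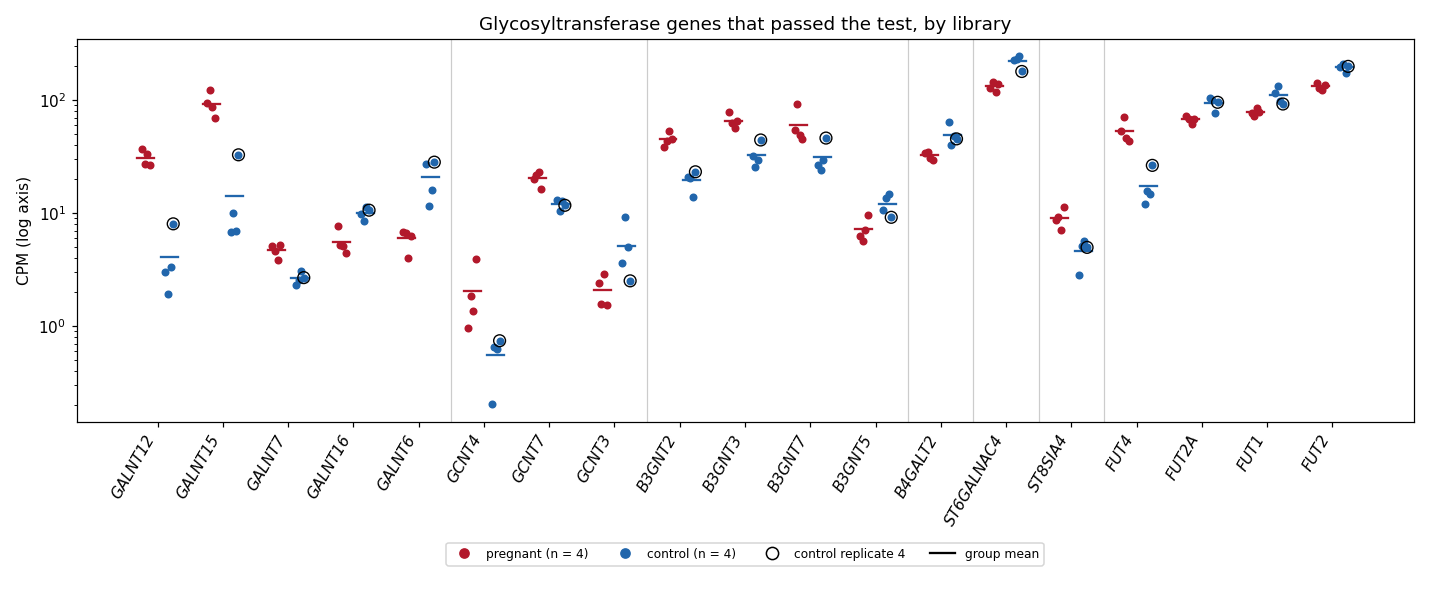
CPM (y axis, log scale) in each library for the 19 glycosyltransferase genes that passed (x axis, in order of chain building, grey lines between steps); red points are pregnant and blue points control animals (n = 4 each), bars are group means and a ring marks control replicate 4. GALNT12 and GALNT15 sit at 26.5 to 36.7 and 69.2 to 123 CPM in pregnant animals, above all controls, and control replicate 4 (8.05 and 32.8 CPM) is the control nearest to them.

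The 2 GALNT genes with the highest level per length, GALNT11 and GALNT2, did not pass. GALNT11 averaged 39.4 ± 4.92 CPM per kilobase of exon in pregnant animals and 46.3 ± 8.11 in controls (SD, n = 4 each; log2 change −0.24 ± 0.15), and GALNT2, one of the most widely used starter enzymes, 39.8 ± 5.72 and 40.5 ± 7.55 (−0.03 ± 0.16). The log2 changes of GALNT1, GALNT10 and GALNT18 were 0.02 ± 0.25, −0.16 ± 0.17 and 0.32 ± 0.21. GALNT9 had 24.7, 15.8, 12.1 and 19.9 CPM in pregnant animals and 4.82, 5.03, 2.79 and 17.5 CPM in controls, and did not pass (log2 change 1.26 ± 0.51, adjusted p = 0.115), with control replicate 4 inside the pregnant range. GALNT3 did not overlap between the groups, with 13.4 to 15.0 CPM in pregnant animals and 6.51 to 12.6 CPM in controls, and missed the threshold (adjusted p = 0.0612). GALNT17 was at 0.629 to 1.70 CPM in pregnant animals and 0.687 to 3.05 CPM in controls (adjusted p = 0.104).

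The summed GALNT level was 220.5 ± 15.0 CPM per kilobase in pregnant animals and 188 ± 15.4 in controls, and its make-up differed between the groups. GALNT15 made up 15.2% ± 3.17 of the sum in pregnant animals and 2.62% ± 2.11 in controls, and GALNT12 4.66% ± 0.591 and 0.711% ± 0.420. GALNT6 made up 2.34% ± 0.472 of the sum in pregnant animals, against 9.53% ± 3.43 in controls. GALNT11 and GALNT2 were the largest parts in both, at 17.95% ± 2.92 and 18.01% ± 2.01 in pregnant animals and 24.9% ± 5.19 and 21.5% ± 2.57 in controls. These shares are descriptions, and no test was made on them.

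**Figure D3:**
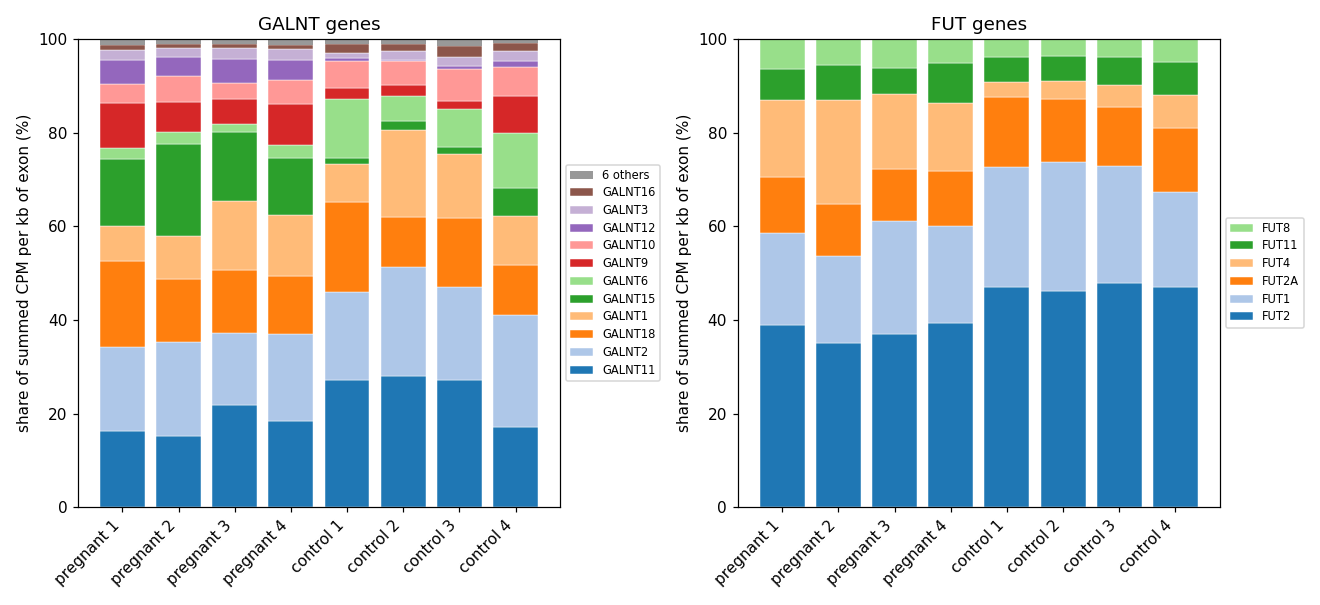
Share (y axis, %) of each gene in the summed CPM per kilobase of exon of the GALNT genes (left) and of the FUT genes (right), 1 bar per library (x axis, pregnant then control). GALNT15 makes up 15.2% on average in pregnant animals and 2.62% in controls, and FUT4 17.3% and 4.77%; control replicate 4 has the largest GALNT15 and FUT4 parts among the controls.

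All 3 tested genes of the branching list changed, in both directions. GCNT4, which can make the core 2 branch of O-glycans, rose at a level close to the lower limit of the test, with 0.956, 1.86, 1.36 and 3.97 CPM in pregnant replicates 1 to 4 and 0.204, 0.659, 0.631 and 0.745 CPM in control replicates 1 to 4. The groups did not overlap, and pregnant replicate 4 was the highest. The log2 change of GCNT4 was 1.85 ± 0.51 (adjusted p = 0.0259; Entrez gene 100518180, chromosome 2, 85696084 to 85721433), but it did not pass without pregnant replicate 2 or 4 or control replicate 3 (adjusted p = 0.0534 to 0.0893; range over all alternatives 0.00276 to 0.0893). GCNT7, a relative of these enzymes, rose to 19.9, 21.9, 23.2 and 16.5 CPM in pregnant animals, against 12.95, 10.5, 12.9 and 11.7 CPM in controls (0.76 ± 0.15, adjusted p = 0.00469; Entrez gene 100134987, chromosome 17, 64173358 to 64180119). It held 86.5% ± 4.73 of the summed level per length of this list in pregnant animals and 75.7% ± 10.7 in controls. That sum leaves out GCNT1, described below, which had 13.1 ± 1.95 CPM per kilobase in pregnant animals and 24.3 ± 7.34 in controls. GCNT7 had 14.3 ± 2.04 CPM per kilobase in pregnant animals and 8.45 ± 0.828 in controls, so its large share depends on leaving GCNT1 out.

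GCNT3, which makes core 2 and core 4 branches in mucin-producing epithelia, fell to 2.41, 1.57, 2.91 and 1.56 CPM in pregnant replicates 1 to 4, against 3.66, 9.22, 5.01 and 2.52 CPM in control replicates 1 to 4. Control replicate 4 lay inside the pregnant range, so the groups overlapped. The log2 change was −1.28 ± 0.40 (adjusted p = 0.0421; Entrez gene 100522112, chromosome 1, 124392740 to 124396124). GCNT3 did not pass without pregnant replicate 1, 2 or 4 or control replicate 2 or 3, with limma voom, or with a replicate block (adjusted p = 0.0652 to 0.116; range over all alternatives 0.00839 to 0.116). GCNT1, the main core 2 enzyme of many tissues, is tied to its symbol only through a transcript accession and so lies outside the 61 genes. It had 36.1, 26.6, 27.3 and 28.3 CPM in pregnant animals and 67.5, 41.1, 70.5 and 39.8 CPM in controls, without overlap, and fell by 0.89 on the log2 scale (SE 0.21, adjusted p = 0.0118; Entrez gene 100157004).

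Among the 6 tested GlcNAc extension genes 3 rose and 1 fell. B3GNT2, the main enzyme of poly-N-acetyllactosamine chains, had 38.3, 43.4, 53.2 and 45.6 CPM in pregnant replicates 1 to 4, against 20.7, 20.3, 13.9 and 23.2 CPM in control replicates 1 to 4. The groups were clearly apart, at a log2 change of 1.21 ± 0.17 (adjusted p = 0.000733; Entrez gene 100524195, chromosome 3, 83442747 to 83475377). B3GNT3, which extends core 1 O-glycans and helps make ligands of L-selectin, reached 78.2, 62.9, 56.2 and 64.8 CPM in pregnant animals, against 31.8, 25.5, 29.6 and 44.4 CPM in controls, with control replicate 4 the highest control. Its log2 change was 1.00 ± 0.18 (adjusted p = 0.00266; Entrez gene 100518473, chromosome 2, 59505431 to 59522170). Per length B3GNT3 was the leading gene of the list, at 44.8 ± 6.31 CPM per kilobase in pregnant animals and 22.4 ± 5.58 in controls.

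B3GNT7, an enzyme of keratan sulfate chains, was measured at 54.8, 92.6, 49.6 and 45.1 CPM in pregnant replicates 1 to 4 and at 26.8, 23.9, 29.4 and 46.2 CPM in control replicates 1 to 4, where control replicate 4 lay above pregnant replicate 4. The log2 change was 0.94 ± 0.26 (adjusted p = 0.0272; Entrez gene 100737088, chromosome 15, 145842177 to 145846484). A second locus on the same chromosome (Entrez gene 100736860) matches B3GNT7 by transcript accession and had nearly the same level, 61.5 ± 22.4 CPM in pregnant animals and 31.95 ± 10.19 CPM in controls, so the reads of each copy are uncertain. B3GNT7 did not pass without pregnant replicate 2 or control replicate 1, 2 or 3, or with a replicate block (adjusted p = 0.0642 to 0.0821; range over all alternatives 0.00541 to 0.0821). B3GNT5, which starts the lacto-series glycolipids, fell to 6.26, 5.70, 7.15 and 9.70 CPM in pregnant animals, against 10.7, 13.6, 14.8 and 9.19 CPM in controls, with overlap between pregnant replicate 4 and control replicate 4 (−0.75 ± 0.22, adjusted p = 0.0327; Entrez gene 397599, chromosome 13, 130478538 to 130494817). It did not pass without pregnant replicate 1, 2 or 3 or control replicate 2 or 3, or with a replicate block (adjusted p = 0.0647 to 0.0978; range over all alternatives 0.00797 to 0.0978). B3GNT4 and B3GNT8 had log2 changes of −0.08 ± 0.35 and 0.03 ± 0.21. The summed level of the list was 95.8 ± 8.29 CPM per kilobase in pregnant animals and 54.3 ± 9.72 in controls.

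Of 9 tested galactose extension genes 0 rose and 1 fell, B4GALT2, an enzyme of N-acetyllactosamine synthesis. It had 34.1, 35.0, 31.1 and 29.4 CPM in pregnant animals and 64.7, 40.3, 48.1 and 45.4 CPM in controls, without overlap and with control replicate 1 the highest (−0.62 ± 0.15, adjusted p = 0.0162; Entrez gene 100736821, chromosome 6, 154765873 to 154772179). B4GALT2 did not pass without pregnant replicate 4 (adjusted p = 0.0521; range over all alternatives 0.00497 to 0.0521). B4GALT1, the housekeeping N-acetyllactosamine enzyme and the most abundant of the list per length, was at 51.1 ± 6.39 CPM per kilobase in pregnant animals and 54.4 ± 2.83 in controls (log2 change −0.09 ± 0.12, adjusted p = 0.627). B4GALT3, B4GALT4 and B4GALT5 had log2 changes of 0.07 ± 0.14, −0.07 ± 0.16 and 0.26 ± 0.21, and B3GALT4 −0.14 ± 0.15. B4GALT6 and B3GALT5, both under 3 CPM in every library, had larger but ill-determined differences of −1.66 ± 0.87 and −1.34 ± 0.76. The summed level of the list was 164 ± 7.51 CPM per kilobase in pregnant animals and 178 ± 11.7 in controls. B4GALT7 and B3GALT6 do not build these chains but add the galactoses of the linker that ties glycosaminoglycans to proteoglycans. B4GALT7 was lower in all pregnant animals (30.0 to 34.1 CPM) than in all controls (35.6 to 43.0 CPM) but missed the threshold (−0.31 ± 0.11, adjusted p = 0.0768; 0.0374 with DESeq2, range over all alternatives 0.0374 to 0.188), and B3GALT6 was at −0.05 ± 0.18.

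Of 13 tested sialyltransferase genes 1 fell and 1 rose. ST6GALNAC4, which adds sialic acid to the GalNAc of sialylated O-glycans, had the highest level per length of all 61 genes over both groups, with 83.6 ± 7.75 CPM per kilobase in pregnant animals and 139 ± 17.9 in controls. In single libraries it stood at 128, 145, 118 and 140 CPM (pregnant replicates 1 to 4) and at 226, 231, 244 and 179 CPM (control replicates 1 to 4), with no overlap. The log2 change was −0.73 ± 0.13 (adjusted p = 0.00246; Entrez gene 396676, chromosome 1, 302314295 to 302324793). Its neighbour ST6GALNAC6 (chromosome 1, 302293881 to 302305900), an enzyme of ganglioside and glycoprotein sialylation, did not pass, at 176, 127, 123 and 108 CPM in pregnant animals and 220, 130, 132 and 168 CPM in controls (−0.28 ± 0.20, adjusted p = 0.346). ST6GALNAC2 was at 97.1 to 147 CPM in pregnant animals and 106 to 163 CPM in controls (−0.09 ± 0.17). ST6GALNAC1, ST6GALNAC3 and ST6GAL2 were below 4 CPM in every library and did not pass.

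ST8SIA4, which makes polysialic acid, rose to 8.74, 9.20, 7.05 and 11.3 CPM in pregnant replicates 1 to 4, against 2.85, 5.15, 5.64 and 4.98 CPM in control replicates 1 to 4. The groups did not overlap (0.96 ± 0.24, adjusted p = 0.0159; Entrez gene 641356, chromosome 2, 110733645 to 110825843), but ST8SIA4 did not pass without pregnant replicate 4 (adjusted p = 0.0522; range over all alternatives 0.000736 to 0.0522). The general leukocyte marker PTPRC rose in the same animals, at 51.7 CPM on average in pregnant animals and 12.4 CPM in controls, and its part in the ST8SIA4 difference was not tested. ST8SIA2, the other polysialic acid enzyme, was at 0.496 to 1.65 CPM in pregnant animals and 0.509 to 2.44 CPM in controls (−0.18 ± 0.54). The 5 tested genes for α2,3 caps, ST3GAL1, ST3GAL3, ST3GAL4, ST3GAL5 and ST3GAL6, had log2 changes of −0.31 to 0.43 and 0 of them passed with edgeR, with 1 at an unadjusted p under 0.05. That gene, ST3GAL4, an enzyme for terminal galactose of glycoproteins, had 24.2, 22.9, 21.7 and 19.9 CPM in pregnant animals and 20.9, 14.1, 15.8 and 14.9 CPM in controls (0.43 ± 0.15, adjusted p = 0.0697). It passed without control replicate 1 (0.0107) and with DESeq2 (0.0429; range over all alternatives 0.0107 to 0.159). ST3GAL1, which caps core 1 O-glycans, was at 6.88 to 19.0 CPM in pregnant animals and 7.91 to 15.1 CPM in controls (0.24 ± 0.31).

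Of 6 tested fucosyltransferase genes 1 rose and 3 fell. FUT4, an α1,3-fucosyltransferase that makes Lewis x type structures and is common in myeloid cells, rose, with 52.9, 70.5, 46.4 and 43.8 CPM in pregnant replicates 1 to 4 and 11.9, 15.7, 14.8 and 26.5 CPM in control replicates 1 to 4. All pregnant values lay above control replicate 4, the highest control. The log2 change of FUT4 was 1.63 ± 0.25 (adjusted p = 0.001; Entrez gene 100513419, chromosome 9, 30431734 to 30435586), and its share of the summed FUT level per length was 17.3% ± 3.37 in pregnant animals and 4.77% ± 1.71 in controls. Macrophage and dendritic cell markers summed to 1080 to 1440 CPM in pregnant animals and 365 to 670 CPM in controls, and their part in the FUT4 difference was not tested.

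FUT1 and FUT2 are α1,2-fucosyltransferase genes, whose enzymes make the H antigen (the base of ABO-type structures). FUT2A was placed with them by name only. FUT1, FUT2 and FUT2A all fell. They lie side by side on chromosome 6, FUT2A at 49757548 to 49771765, FUT2 at 49782006 to 49792234 and FUT1 at 49824782 to 49827828, and FUT1 is known in pigs as the gene tied to susceptibility to gut colonization by certain Escherichia coli strains. FUT2 (Entrez gene 397139) had 143, 128, 123 and 137 CPM in pregnant replicates 1 to 4, against 198, 209, 175 and 199 CPM in control replicates 1 to 4. The log2 change was −0.56 ± 0.11 (adjusted p = 0.00411). FUT2A (Entrez gene 100524201) was lower as well, at 72.8, 67.9, 61.1 and 68.1 CPM in pregnant animals and 104, 100.4, 77.2 and 95.6 CPM in controls (−0.48 ± 0.12, adjusted p = 0.0173). FUT1 (Entrez gene 397138) fell to 76.9, 72.4, 85.8 and 78.0 CPM in pregnant animals, against 116, 134, 97.9 and 92.3 CPM in controls (−0.49 ± 0.13, adjusted p = 0.0253). For none of these genes did the groups overlap. They are paralogs, and whether the counting assigned reads of one to another was not tested, so the value of a single gene is uncertain.

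FUT2A did not pass without pregnant replicate 2 or control replicate 2 (adjusted p = 0.0503 and 0.0554; range over all alternatives 0.0055 to 0.0554). FUT1 did not pass without pregnant replicate 1, 2 or 4 or control replicate 1 or 2, or with a replicate block (adjusted p = 0.0521 to 0.082; range over all alternatives 0.007 to 0.082). By level per length averaged over both groups FUT2 came second among the 61 genes, at 57.3 ± 3.89 CPM per kilobase in pregnant animals and 84.3 ± 6.21 in controls; in pregnant animals alone ST6GALNAC6 was slightly above it, at 57.9 ± 12.8. FUT8, which adds the core fucose of N-glycans, and FUT11, a relative with a less settled role, had log2 changes of 0.28 ± 0.16 and 0.03 ± 0.17. The summed FUT level was 152 ± 7.14 CPM per kilobase in pregnant animals and 179 ± 15.6 in controls.

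The remaining 9 genes had too few reads to be tested. GALNT13 had 18 reads in pregnant animals, all in pregnant replicates 1 and 3, and 0 in controls. If each read is 1 fragment, 0 reads allow up to 3 counts over the group or 0.0235 CPM. The limit is higher if 2 reads are 1 fragment. B3GALT1 had 24 reads in pregnant animals and 54 in controls, and GALNT5 7 and 25. GALNT8, GALNT14, B3GNT6, ST6GALNAC5, ST8SIA3 and ST8SIA6 had at most 7 reads in either group. Low counts are mostly even numbers, so 2 reads may be 1 fragment, and nothing is drawn from these genes. Symbols of the same series in the name table that no Entrez gene ID of the count tables maps to, FUT7, FUT9, FUT10, GALNT4, B3GNT9, ST3GAL2, ST6GAL1, ST8SIA1 and ST8SIA5, are not analysed here.

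Other genes of the same pathways were taken from lists of the steps before and after these enzymes. Of 20 tested further chain glycosyltransferases 1 rose and 4 fell (25.0% passed, near the 21.6% of all genes tested). The one that rose, C1GALT1, which makes the core 1 structure that O-glycan branching and sialylation start from, averaged 10.7 ± 1.17 CPM in pregnant animals and 6.03 ± 0.545 CPM in controls (SD, n = 4 each; log2 change 0.83 ± 0.16, adjusted p = 0.00355). Its chaperone gene C1GALT1C1 was at 11.8 ± 1.70 and 11.6 ± 2.41 CPM (0.03 ± 0.18). GALNTL5, a relative of the GALNT genes, fell by 1.47 (SE 0.36), B3GLCT, which extends O-fucose, by 0.68 (SE 0.16), and the N-glycan branching gene MGAT4B by 0.56 (SE 0.13), all on the log2 scale.

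Of 22 tested genes of nucleotide sugar supply 5 rose and 3 fell (36.4% passed, against 21.6% of all genes tested). SLC35A1, the Golgi carrier of the activated sialic acid, was at 14.0 ± 0.498 CPM in pregnant animals and 6.48 ± 1.11 CPM in controls (1.11 ± 0.16, adjusted p = 0.000752), while CMAS, which makes that activated form, did not pass (0.38 ± 0.16, adjusted p = 0.112). UAP1, which makes the activated forms of GlcNAc and GalNAc, rose to 132 ± 19.8 CPM in pregnant animals, against 78.4 ± 17.3 CPM in controls (0.75 ± 0.17, adjusted p = 0.0105). GALT, of galactose use, fell to 95.1 ± 13.8 CPM in pregnant animals, against 183 ± 48.8 CPM in controls (−0.94 ± 0.20, adjusted p = 0.00647). GMDS, which starts the synthesis of activated fucose, fell to 40.0 ± 10.3 CPM, against 69.4 ± 13.9 CPM in controls (−0.79 ± 0.20, adjusted p = 0.0173), but it did not pass without pregnant replicate 4 (0.0511; range over all alternatives 0.00362 to 0.0511). SLC35C1, the Golgi carrier of activated fucose, missed the threshold (−0.36 ± 0.13, adjusted p = 0.0758) and passed with DESeq2 (0.0389; range over all alternatives 0.0389 to 0.192).

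**Figure D4:**
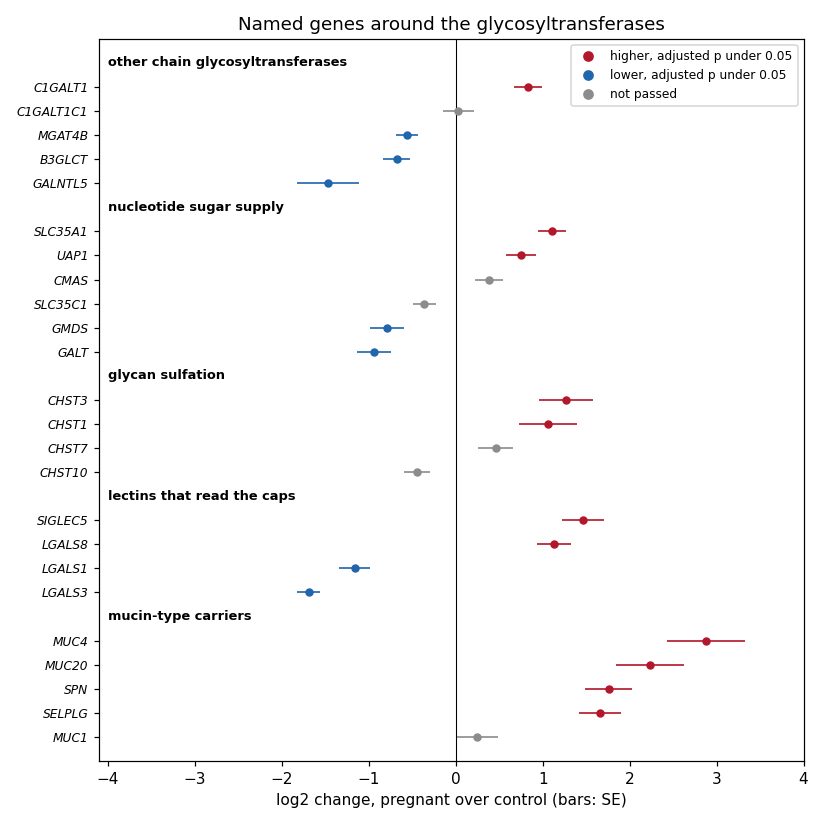
Log2 change (x axis, pregnant over control, bars are SE) of the named genes of 5 lists around the glycosyltransferases (y axis, by list). SLC35A1 (1.11) and C1GALT1 (0.83) are higher, LGALS3 (−1.69) and LGALS1 (−1.16) lower, and the carriers MUC4 (2.88) and MUC20 (2.23) show the largest rises of those plotted.

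Among 8 tested sulfotransferase genes of glycans 2 rose and 0 fell (25.0% passed, near the 21.6% of all genes tested). These were CHST3 (1.27 ± 0.31, adjusted p = 0.014) and CHST1 (1.06 ± 0.33, adjusted p = 0.0425). CHST1 did not pass when any 1 library other than pregnant replicate 3 was left out (adjusted p = 0.0525 to 0.109; range over all alternatives 0.00974 to 0.109). CHST7 (0.46 ± 0.20) and CHST10 (−0.44 ± 0.15) did not pass; CHST7 did without control replicate 1 (adjusted p = 0.0187; range over all alternatives 0.0187 to 0.261) and CHST10 with DESeq2 (0.0454; range over all alternatives 0.0454 to 0.169). The sialidase gene NEU1, whose enzyme removes sialic acid caps, did not pass (−0.31 ± 0.11, adjusted p = 0.061), though it did with DESeq2 (0.0387; range over all alternatives 0.0387 to 0.155).

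Lectins, proteins that bind sugars of the chains or their caps, changed in both directions, with 5 of 12 tested higher and 2 lower (58.3% passed, against 21.6% of all genes tested). The galactose-binding LGALS3 fell to 161 ± 10.9 CPM in pregnant animals, against 519 ± 70.3 CPM in controls (−1.69 ± 0.13, adjusted p = 1.69e-05), and LGALS1 to 117 ± 24.6 CPM, against 262 ± 54.6 CPM in controls (−1.16 ± 0.18). LGALS8, a galectin with a site for sialylated chains, rose by 1.13 (SE 0.20), and the sialic acid binding leukocyte receptor gene SIGLEC5 by 1.46 (SE 0.24), on the log2 scale. Of 10 tested mucin-type carriers 4 rose and 0 fell (40.0% passed, against 21.6% of all genes tested). MUC4 reached 761 ± 89.9 CPM in pregnant animals, against 104 ± 82.7 CPM in controls (2.88 ± 0.45, adjusted p = 0.00184; 3.61 without control replicate 4), and MUC20 6.25 ± 1.92 CPM, against 1.34 ± 0.795 CPM in controls (2.23 ± 0.39). The leukocyte sialomucin genes SPN and SELPLG rose by 1.76 (SE 0.27) and 1.66 (SE 0.24). MUC1 did not pass (0.25 ± 0.24, adjusted p = 0.49), at 39.3 ± 11.1 CPM in pregnant animals and 33.1 ± 9.23 CPM in controls.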

How the data were processed

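Each library has deposited read counts, raw and per transcript, made by the authors; 2 annotation files hold the exon starts and ends as deposited coordinates. Per the submitters' processing notes the software included CASAVA 1.6, TopHat 1.4, Cufflinks 1.3 and DESeq, on build Sscrofa10.2; the counting tool is not given in the sources used here. Libraries came from poly(A) RNA with no strand mark, and RNA integrity numbers were 7.0 to 8.8, per the labels' protocols. Among counts from 1 to 10, 76.4% were even, as when both reads of a pair are counted. Counting limits cover counting error only.

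Symbols came from a RefSeq gene table (Sscrofa11.1, names only), by Entrez ID for 16270 genes and by accession for 103. FUT2A was placed with the other FUT genes. In the deposited annotation 0 members share exonic bases with another gene. In the 4 members with several transcripts, the lowest mean count was 0.934 to 0.996 of the highest. The main test was edgeR 4.0.16 (R 4.3.3) on the raw counts, with TMM scaling, filterByExpr at 10 counts, a robust quasi-likelihood model with group as its only term, and Benjamini-Hochberg adjustment over 18783 transcripts. It was tested on simulated data. Each SE is the log2 change divided by the square root of F. CPM divide counts by the TMM-scaled library size, and CPM per kilobase also by the exon length of the transcript. DESeq2 1.42.0, limma 3.58.1 (voom), other scalings, no filter, 1 transcript per gene, a replicate block and leaving out each library were the alternatives. P-values set the difference between the groups against the spread between the 4 animals of a group, estimated with information shared across transcripts.

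The members and lists were chosen with earlier results of these data known. Named were all members that passed, the 2 members with the highest level per length in each step, up to 4 genes with the smallest p in each pathway list, and C1GALT1, C1GALT1C1, MUC1, MUC4, CMAS, SLC35A1 and SLC35C1. The other tested members, GCNT1, PTPRC and the conceptus markers were added after their values were seen. Some genes of the list of sugar-removing enzymes, which that rule names, are not reported here. No sequence was printed, since none was in the files used.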

Additional observations from a re-analysis of the deposited data

Results flagged for a closer look

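In 4 of 104 groups of 4 libraries (52 tested genes, each in both conditions) 1 library stood far from the other 3, by a gap to its neighbour of 0.839 to 0.903 of the group's whole range, past Dixon's critical value; chance gives about 1 in 20. In 3 of these it was control replicate 4. GALNT15 was at 32.8 CPM in that library and at 6.85 to 10.1 CPM in the other controls, GALNT9 at 17.5 CPM against 2.79 to 5.03 CPM, and ST3GAL1 at 15.1 CPM against 7.91 to 9.06 CPM. B3GALT6 was at 20.6 CPM in control replicate 1 and at 13.1 to 13.8 CPM in the other controls. Of these genes GALNT15 passed, also without control replicate 4.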

How the results depend on the processing

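Of the 19 genes that passed, 11 passed under all 15 alternatives and 8 were lost under at least 1, as given above; 0 changed direction. With edgeR on RLE or upper quartile scaling, without the filter or with 1 transcript per gene, 10 rose and 9 fell, with limma voom 11 and 8, and with DESeq2 13 and 10. The median difference of the log2 changes of single transcripts from those of the main test was −0.01 to 0.018 over the alternatives. Leaving out 1 library gave 8 to 12 higher and 5 to 10 lower members, and 1599 to 2110 higher and 1265 to 2017 lower transcripts, against 2111 and 1898. The labels number the biological replicates but do not say whether the numbers pair the animals, and the main test did not pair them. The deviations of same-numbered libraries correlated at 0.229, −0.15, −0.0217 and 0.0944, and not every library correlated best with its own number. With 4 libraries a group these correlations cannot decide whether the animals were paired. With the replicate block 10 members rose and 6 fell. Genes that had not passed changed sign when 1 library was left out: GALNT2 ran from −0.11 to 0.08, ST3GAL1 from −0.08 to 0.5, ST8SIA2 from −0.54 to 0.55, B3GALT6 from −0.13 to 0.15 and C1GALT1C1 from −0.04 to 0.19 on the log2 scale. The cause of these moves was not tested. With 4 animals a group, small changes of genes with few reads cannot be told from the spread between animals.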

Other observations

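Some genes varied more between animals of 1 group than between the groups. B3GALT2, a β1,3-galactosyltransferase gene, had 7.89, 2.85, 2.45 and 25.4 CPM in pregnant replicates 1 to 4 and 5.19, 8.30, 20.3 and 11.5 CPM in control replicates 1 to 4, so the highest pregnant value was 10.4 times the lowest, and the log2 change was −0.23 ± 0.72. B4GALT6, a lactosylceramide synthase gene, ran from 0.0662 to 0.885 CPM in pregnant animals and from 0.286 to 2.73 CPM in controls, with 13.4 and 9.51 as the ratios of the highest to the lowest value.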
